A study of Zea mays with 12 samples.

Results

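Transcripts of maize genes were compared between stems in which larvae of the stem borer *Sesamia nonagrioides* had fed and stems of untreated plants. Members were the features of the deposited count table whose identifier is that of a maize gene, in the 3 larva libraries and the 3 control libraries. The table held 29723 such genes, and 19612 of them passed the filter on low counts and were tested. The 6 libraries are part of a study of 12, whose other libraries come from wounded plants and from wounded plants that received caterpillar regurgitate.

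In the larva group, plants of the maize inbred line PB130 were infested by placing young larvae between leaf sheath and stem, below the ear. In the control group, plants of the same line were left untreated. All plants grew in a greenhouse, all libraries were made from a piece of stem without visible damage in the upper part of the internode below the ear, with the leaf sheath removed, and all were collected 15 days after the treatment. The sample labels place the treatment at tasselling and the study's methods at silking. The comparison addresses the late response of stem tissue without visible damage. The labels speak of 15 plants for each treatment and the methods of 3, each the source of 1 library, and the p-values given here measure the spread between these libraries of a single line.

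Maize answers chewing insects with proteins that disturb their digestion, such as protease inhibitors, and with toxic or repellent compounds such as benzoxazinoids and terpenes. Jasmonate is the main hormone of this response, and families of transcription factors such as AP2/ERF and WRKY relay it. The stem itself is mostly ground tissue and vascular bundles with thick walls of cellulose and lignin, and its outer cells are green. Massive analysis of cDNA ends (MACE) reads a single tag near the 3′ end of a transcript, and long genes therefore gather no more tags than short ones at the same level. Levels are given as counts per 1000000 counts on maize genes (CPM), after scaling the libraries by edgeR's TMM method.

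Larva libraries held 5651382 to 9882273 counts and control libraries 6474738 to 8508332, of which 84.9% to 89.7% fell on maize genes. Larva replicates 2 and 3 were nearly alike: over all genes their counts gave a chi-square of 1.56 divided by its degrees of freedom, whereas the other pairs within a group gave 16.6 to 38.1. They were kept as separate replicates, and results were repeated with both summed as 1 sample. Control replicate 1 stood apart from the other libraries. On the first principal component of log2 CPM (33.2% of the variance) it lay at -76.4, while the other libraries lay between 3.62 and 30.5. It also held 33 genes, counting genes with at least 5 CPM, at more than 4 times the highest level in any other library, against 16 genes in larva replicate 1 and at most 11 in any of the others.

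By edgeR's quasi-likelihood test, 0 of the 19612 genes passed an FDR of 0.05. An unadjusted p under 0.05 was reached by 1954 genes (9.96%), of which 938 (4.78%) were higher and 1016 (5.18%) lower after feeding. DESeq2, fitted on the same genes and libraries, called 273 genes (1.39%), of which 132 (0.673%) rose and 141 (0.719%) fell. Rises and falls counted in the lists below compare with these shares of all genes, 0.673% and 0.719%. From here on, "rose" and "fell" refer to genes with an adjusted p under 0.05 by DESeq2, and none of them passed edgeR's FDR. In 3043 genes (15.5%) the larva and control values did not overlap, with 1523 genes (7.77%) higher in all larva libraries and 1520 genes (7.75%) lower. Among the 273 called genes, 268 had groups that did not overlap, and 204 differed by more than 1 on the log2 scale. Across all tested genes the median log2 fold change was -0.01, with 9471 genes (48.3%) higher and 10141 (51.7%) lower.

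**Figure D1:**
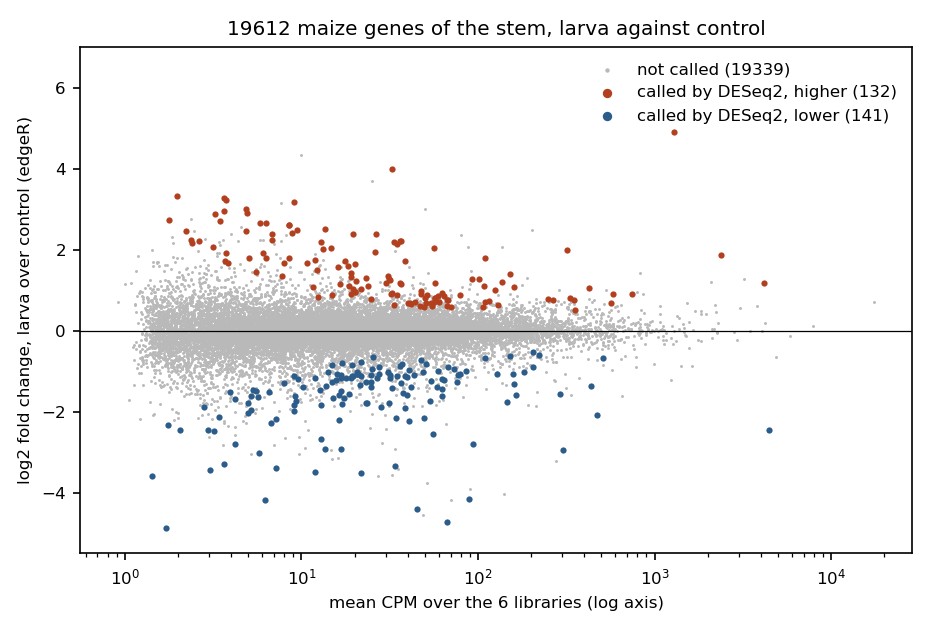
Log2 fold change (larva over control, edgeR) of the 19612 tested maize genes against their mean level in CPM, on a log axis. Coloured points are the 132 genes that rose and the 141 that fell by DESeq2, and grey points are the other genes; the called genes lie on both sides of 0 over the whole range of levels.

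The number of calls depended on single libraries. DESeq2 was repeated with each library left out in turn and with larva replicates 2 and 3 summed, which gave 7 further fits. Of the 273 genes, 50 were called in all 7 fits, 27 higher and 23 lower. A described function was held by 21 of these 50, against 6502 of all 19612 tested genes. Without larva replicate 2 only 67 of the 273 were called, without larva replicate 3 only 72, with the pair summed 85, without control replicate 3 130, without control replicate 1 161, without control replicate 2 176 and without larva replicate 1 186. With all 12 libraries of the study in 1 fit, 69 of the 273 were called. Genes are described below as steady when the call was made in all 7 fits, and the fits that lose a call are named for the others. Among the 10 higher and 10 lower genes with the smallest p by edgeR, all 20 were called by DESeq2 and 18 were steady. Like most tested genes, 11 of the 20 had no described function.

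The lowest p among the higher genes belonged to the pathogenesis-related protein 10 gene GRMZM2G112488, which encodes a small intracellular defence protein. It had 102, 76.1 and 94.0 CPM in larva libraries, against 23.6, 23.2 and 19.5 CPM in control libraries. It rose by 2.04 ± 0.16 on the log2 scale (SE, 3 libraries per group), to 4.10 times the control mean, with an adjusted p of 3.32e-18 by DESeq2 and an FDR of 0.0501 by edgeR. The lowest p among the lower genes belonged to GRMZM2G075456, which encodes a calcium-binding EF-hand protein of the kind that senses calcium signals in the cell. Its level was 3.54, 4.57 and 4.03 CPM in larva libraries, against 75.7, 128 and 53.9 CPM in control libraries. The log2 fold change was -4.40 ± 0.36 (SE), 21.2 times lower than in control stems, with an adjusted p of 1.91e-25 by DESeq2 and the same FDR of 0.0501 by edgeR. Both genes were steady and both separated the groups widely.

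Other steady genes at the top of the order had roles in transport, in signalling and in day-length responses. The glycerol 3-phosphate permease GRMZM5G843302, a transporter of the phosphate-linked sugar alcohol, had 51.8, 65.9 and 62.0 CPM in larva libraries, against 16.9, 9.25 and 12.4 CPM in control libraries. This was a rise of 2.22 ± 0.24 on the log2 scale (SE), and every larva value lay above every control value. The protein phosphatase gene PP2C11 (GRMZM2G308615, named by RefSeq), of a family that switches off stress signalling by kinases, had 19.4, 18.8 and 21.7 CPM in larva libraries, against 46.7, 65.3 and 67.4 CPM in control libraries, and fell by 1.58 on the log2 scale. CONSTANS-like CO8 (GRMZM2G092363), of a family of factors that respond to light and day length, had 14.5, 12.8 and 13.3 CPM in larva libraries, against 34.9, 29.5 and 34.2 CPM in control libraries, and fell by 1.28. In both genes the spread within each group was small beside the difference.

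Of the genes with no function in the deposited descriptions, several differed widely and in every library. GRMZM2G124759 had 2.36, 5.11 and 7.45 CPM in larva libraries, against 201, 138 and 46.4 CPM in control libraries, and a log2 difference of -4.72 ± 0.65 (SE) with an adjusted p of 3.23e-13 by DESeq2. GRMZM2G067315 was among the 10 most abundant transcripts, with 2011, 1066 and 1053 CPM in larva libraries, against 10690, 3987 and 7884 CPM in control libraries, and fell by 2.45 on the log2 scale. The study's own annotation names GRMZM2G124759 a triacylglycerol lipase, which splits storage lipids, and GRMZM2G067315 a glycine-rich structural protein of the cell wall. The other undescribed genes in this group that were steady rose by 1.29 (GRMZM2G104942), 2.46 (GRMZM2G072965), 2.88 (GRMZM2G148014), 2.96 (AC208110.2_FG011) and 3.004 (GRMZM2G093554), or fell by 1.11 (GRMZM2G147014), 2.20 (GRMZM2G060974) and 2.28 (GRMZM2G400965), all log2 fold changes by edgeR. For some of these the study gives a name: GRMZM2G060974 as sweet3b, of a family of sugar transporters, GRMZM2G104942 as a transporter of the same substrate as the permease above, AC208110.2_FG011 by a rice peptide transporter, and GRMZM2G072965, GRMZM2G148014 and GRMZM2G093554 by rice cupin-domain proteins. A list of cupins and germin-like proteins, drawn from the deposited descriptions, does not hold the genes named by cupin-domain proteins. Of its 15 tested members 7 were higher and 8 lower, with a median of -0.07 and 0 calls by DESeq2. At an unadjusted p under 0.05 by edgeR 0 were higher and 3 lower, against 4.78% and 5.18% of all genes. GRMZM2G144483 fell by 1.11, and its call was lost without larva replicate 3 (adjusted p = 0.0577 by DESeq2). The Erg28-like gene GRMZM2G140665, counted together with a second maize gene, had 0, 0.269 and 0 CPM in larva libraries, against 3.57, 4.36 and 2.10 CPM in control libraries, and DESeq2 gave it no adjusted p without control replicate 2.

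Further steady genes with a described function belonged to none of the gene lists described below and were chosen after their values were seen. A carbonic anhydrase (GRMZM2G113191), which interconverts carbon dioxide and bicarbonate, had 5.31, 22.6 and 21.1 CPM in larva libraries, against 1.65, 2.44 and 1.35 CPM in control libraries, and rose by 3.17 on the log2 scale. A cytidine deaminase (GRMZM2G380088), which recycles pyrimidines, had 174, 234 and 242 CPM in larva libraries, against 119, 92.3 and 97.1 CPM in control libraries, and rose by 1.08. A chemocyanin (GRMZM2G004106), of a family of small copper proteins of the cell surface, rose by 1.73, with 80.1, 51.5 and 47.1 CPM in larva libraries, against 25.8, 16.9 and 11.2 CPM in control libraries. The gene of a herbicide safener binding protein (GRMZM2G085924) fell by 3.51, with 4.37, 3.90 and 2.01 CPM in larva libraries, against 15.4, 27.7 and 76.8 CPM in control libraries. Of these, the deaminase alone was called with all 12 libraries (adjusted p = 0.0134 by DESeq2). Among undescribed genes chosen in the same way, GRMZM2G343291 fell by 4.16, with 2.01, 8.47 and 18.3 CPM in larva libraries, against 207, 187 and 108 CPM in control libraries, and was steady. GRMZM2G042789, the called gene with the largest positive fold change, had 92.3, 3805 and 3610 CPM in larva libraries, against 33.8, 149 and 68.9 CPM in control libraries. Its groups overlapped, since larva replicate 1 lay below control replicate 2, and the call (adjusted p = 0.0173) was kept only without larva replicate 1 and without control replicate 2 (0.125 to 0.331 in the other fits).

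**Figure D2:**
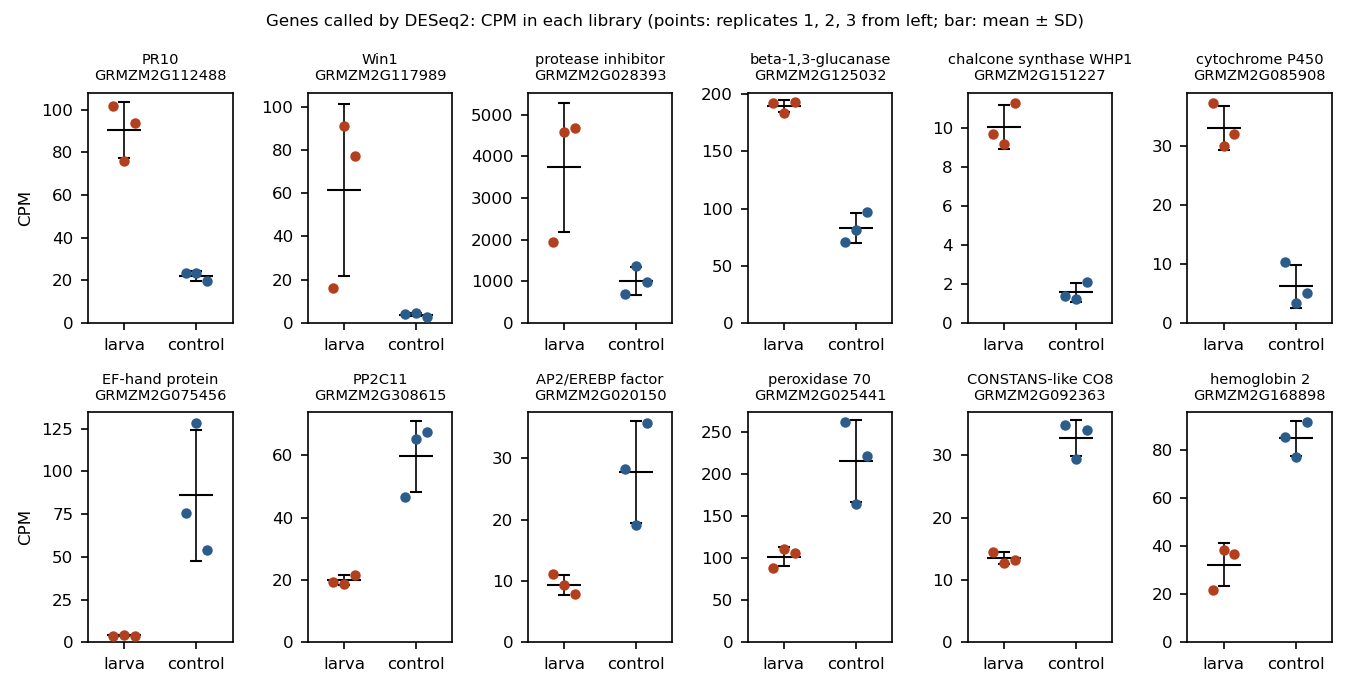
Level in CPM of 12 genes that were steady by DESeq2, with 1 point per library, larva libraries left of control libraries, and bars for the mean and SD of 3 libraries. All larva points of a gene lie on 1 side of all its control points, as for PR10 between 76.1 and 102 CPM in larva libraries and between 19.5 and 23.6 CPM in control libraries.

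In the fit of all 12 libraries, the PR10 gene, CO8, PP2C11, GRMZM2G124759, GRMZM2G343291, GRMZM2G067315, GRMZM2G060974, GRMZM2G400965 and AC208110.2_FG011 were still called. The EF-hand gene was given no adjusted p there, and the permease was not called (adjusted p = 0.190 by DESeq2). Nor were the other steady genes without a described function named above. For the other steady genes this fit is given with each gene.

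Among genes for defence proteins, single members rose while most of their families were split between higher and lower genes. Of 13 tested pathogenesis-related genes (15 in the table), 5 were higher and 8 lower, 2 rose and 0 fell. Besides PR10, the rise was in Win1 (GRMZM2G117989), a name given to wound-induced proteins, with 16.1, 91.3 and 77.1 CPM in larva libraries, against 4.25, 4.54 and 2.85 CPM in control libraries. The log2 difference came to 3.98 ± 0.65 (SE), with an adjusted p of 2.34e-08 by DESeq2; larva replicate 1 was far lower than the other larva libraries but still above all controls. The median of the list was -0.25 and lay between -0.44 and 0.18 in the alternatives, positive only without control replicate 1. The call of Win1 was steady and was also made with all 12 libraries.

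The maize proteinase inhibitor MPI (GRMZM2G028393), which blocks serine proteases of the insect gut, had 1939, 4576 and 4692 CPM in larva libraries, against 703, 1368 and 978 CPM in control libraries. It was steady and rose by 1.88 ± 0.46 on the log2 scale (SE; adjusted p = 0.000679 by DESeq2, and 0.119 with all 12 libraries). Of 19 tested protease inhibitors, 9 were higher and 10 lower, and MPI alone of this list passed the test. The list was drawn from the deposited descriptions and does not hold GRMZM2G042789, described above, which the study names a subtilisin-chymotrypsin inhibitor and which rose with groups that overlapped. The most abundant inhibitor, cystatin 2 (GRMZM2G012160), which targets cysteine proteases, had 7263, 28720 and 29440 CPM in larva libraries, against 24140, 8785 and 6855 CPM in control libraries. These ranges overlap almost wholly, as control replicate 1 was nearly as high as larva replicates 2 and 3 while larva replicate 1 was as low as the other controls.

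The beta-1,3-glucanase Gns1 (GRMZM2G125032), which cuts a glucan of fungal walls and of plant callose, had 192, 184 and 193 CPM in larva libraries, against 70.4, 81.5 and 96.8 CPM in control libraries. It rose by 1.19 ± 0.15 on the log2 scale (SE; adjusted p = 9.95e-08 by DESeq2, and 0.0829 with all 12 libraries). Most genes of its family were lower, 11 of 15 tested, with a median of -0.35 (-0.09 without control replicate 1, -0.17 with no filter), 1 rise and 1 fall. The summed level of the 15 genes, Gns1 included, was not lower. It was 1532, 1098 and 1095 CPM in larva libraries, against 737.2, 827.5 and 1155 CPM in control libraries. The lipid-transfer protein AKCS9 (GRMZM2G320373), of a family that carries lipids to the cell surface, had 345, 569 and 623 CPM in larva libraries, against 155, 152 and 82.8 CPM in control libraries. It rose by 1.98 ± 0.33 on the log2 scale (SE) and was steady, though not called with all 12 libraries (adjusted p = 0.387 by DESeq2), while the 16 tested genes of its list were split into 8 higher and 8 lower. A thaumatin-like gene (GRMZM2G006853), of a family of antifungal proteins, was counted with another maize gene, so that its values belong to the pair. It had 6356, 5313 and 5635 CPM in larva libraries, against 1896, 3483 and 2257 CPM in control libraries, and rose by 1.18 on the log2 scale. Its call was lost without larva replicate 3, without control replicate 3 and with larva replicates 2 and 3 summed (adjusted p from 0.0509 to 0.0677 by DESeq2). Of 9 tested chitinases, 5 were higher and 4 lower, with 0 called by DESeq2. At an unadjusted p under 0.05 by edgeR 1 was higher and 1 lower, against 4.78% and 5.18% of all genes.

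Genes described as disease resistance proteins, a name given mostly to immune receptors that detect pathogens inside the cell, were mainly lower in larva stems. Of 17 tested, 14 were lower and the median log2 fold change was -0.41, against -0.01 over all genes, and it stayed between -0.43 and -0.37 under every edgeR alternative run. In 5 of the 17 all larva values lay below all control values, against 7.75% of all genes. An unadjusted p under 0.05 by edgeR was reached by 6 of the 17, all lower, against 5.18% of all genes. The only fall was in disease resistance response protein 206 (GRMZM2G059706), a dirigent-type protein and not an immune receptor, with 37.9, 47.7 and 47.1 CPM in larva libraries, against 153, 87.9 and 80.6 CPM in control libraries. It fell by 1.28 ± 0.26 on the log2 scale (SE; adjusted p = 0.00468), and the call was lost without larva replicate 2, without larva replicate 3 and with the pair summed (0.0624 to 0.0814 by DESeq2).

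Among genes for specialised metabolism, 2 chalcone synthases rose, the enzyme that commits phenylpropanoids to flavonoids and anthocyanins. WHP1 (GRMZM2G151227) had 9.68, 9.14 and 11.3 CPM in larva libraries, against 1.37, 1.22 and 2.10 CPM in control libraries, a rise of 2.66 ± 0.27 on the log2 scale (SE; adjusted p = 9.95e-08 by DESeq2), steady and called with all 12 libraries. C2 (GRMZM2G422750) had 28.7, 74.8 and 77.9 CPM in larva libraries, against 20.4, 4.36 and 14.2 CPM in control libraries. It rose by 2.20 ± 0.58 on the log2 scale (SE; adjusted p = 0.0101), and the call was lost without larva replicate 2, without larva replicate 3 and with the pair summed (0.214 to 0.239 by DESeq2). A flavonoid 3-monooxygenase (GRMZM2G125482), a later step that adds a hydroxyl group to flavonoids, moved the other way, with 4.37, 2.42 and 3.62 CPM in larva libraries, against 8.37, 44.0 and 15.0 CPM in control libraries. It fell by 2.68 on the log2 scale, and the call was lost without larva replicate 2 (adjusted p = 0.0871). Of 41 tested flavonoid genes 27 were higher and 14 lower, with a median of 0.10 that stayed above 0 in every edgeR alternative.

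A terpene synthase and a glucosyltransferase also rose. The terpene synthase tps26 (GRMZM2G030583), which forms volatile monoterpenes, had 119, 132 and 141 CPM in larva libraries, against 68.2, 44.5 and 50.0 CPM in control libraries. It rose by 1.27 ± 0.19 on the log2 scale (SE; adjusted p = 8.48e-06 by DESeq2) and was steady, although not with all 12 libraries (0.354). Of 5 tested terpene synthases 4 were higher, with a median of 0.23 that was -0.06 without control replicate 1. A glucosyltransferase described as acting on limonoids (GRMZM2G304712) had 131, 157 and 153 CPM in larva libraries, against 62.7, 79.9 and 63.5 CPM in control libraries. The rise was 1.10 ± 0.15 on the log2 scale (SE), steady in the 7 fits and not called with all 12 libraries (adjusted p = 0.536 by DESeq2). Maize is not known for limonoids, and the description gives the family of the enzyme rather than its substrate here. Of 51 tested glycosyltransferases 23 were higher and 28 lower, with 2 rises and 0 falls, against 0.673% and 0.719% of all genes. The other rise was BX8, which is also a benzoxazinoid gene and is described below. Groups did not overlap in 13.7% of the list, against 15.5% of all genes.

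Benzoxazinoid genes, whose products deter insects, were mostly higher. Of 9 tested genes (10 in the table), 8 were higher in larva stems, with a median of 0.16, which was 0.04 without larva replicate 3, 0.06 with larva replicates 2 and 3 summed and 0.57 without control replicate 3. The summed level of the 9 genes was 1090, 976.1 and 986.5 CPM in larva libraries, against 1068, 658.3 and 906.9 CPM in control libraries. In this sum control replicate 1 lay above larva replicates 2 and 3. BX8 (GRMZM2G085054), the glucosyltransferase that stores DIMBOA as its glucoside, had 62.1, 59.0 and 57.2 CPM in larva libraries, against 42.4, 38.2 and 38.2 CPM in control libraries. It rose by 0.59 ± 0.12 on the log2 scale (SE; adjusted p = 0.0256), but this call was lost in all 7 further fits (0.0650 to 0.460 by DESeq2). TSA (GRMZM5G841619), an enzyme that releases indole, had 244, 123 and 135 CPM in larva libraries, against 118, 74.2 and 82.8 CPM in control libraries, and did not pass the test (adjusted p = 0.232).

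Cytochromes P450, which oxidise many plant metabolites, were split. Of 72 tested genes 39 were higher and 33 lower, 3 rose and 1 fell, and edgeR gave 20.8% of them an unadjusted p under 0.05, against 9.96% of all genes. GRMZM2G085908 had 37.3, 30.0 and 32.0 CPM in larva libraries, against 10.3, 3.32 and 5.09 CPM in control libraries. It rose by 2.39 ± 0.38 on the log2 scale (SE; adjusted p = 2.99e-06 by DESeq2), steady and called with all 12 libraries. GRMZM2G123309 had 25.9, 66.3 and 72.1 CPM in larva libraries, against 9.33, 9.95 and 16.9 CPM in control libraries, and its rise of 2.18 was steady but not called with all 12 libraries (adjusted p = 0.0897). The deposited descriptions give only the superfamily for both. Another P450, GRMZM2G177668 (ts5 in RefSeq), rose by 1.21, a call kept only without control replicate 1 (0.0710 to 0.156 in the 6 other fits), and GRMZM2G470442 fell by 1.19, a call lost without larva replicate 3, control replicate 1 or control replicate 3 (0.0616 to 0.198 by DESeq2).

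Among hormone genes no list held a call by DESeq2 except cytokinin. Jasmonate synthesis and response had 15 higher and 8 lower of 23 tested genes, and a median of 0.21. The median lay between 0.03 and 0.33 in the alternatives, with 0.06 without larva replicate 1, 0.05 without control replicate 3 and 0.33 without control replicate 1. An unadjusted p under 0.05 by edgeR was reached by 6 of the 23 genes on the higher side and 1 on the lower, against 4.78% and 5.18% of all genes. The jasmonate-induced protein gene GRMZM2G050412 had 210, 305 and 290 CPM in larva libraries, against 194, 81.0 and 50.0 CPM in control libraries (adjusted p = 0.158 by DESeq2). Control replicate 1 was almost as high as the lowest larva library. TIFY15 (GRMZM2G005954), of the family of proteins that hold back jasmonate responses, had 94.1, 59.97 and 62.2 CPM in larva libraries, against 48.2, 47.1 and 47.3 CPM in control libraries (adjusted p = 0.270). Auxin genes (61 tested, 23 higher and 38 lower), gibberellin genes (20 tested, 8 and 12) and genes of abscisic acid and dehydration (16 tested, 7 and 9) had medians between -0.18 and -0.09, and the auxin and gibberellin medians changed sign in at least 1 alternative.

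The cytokinin list, drawn by words that also catch response regulators of the clock, had 13 higher and 7 lower of 20 tested genes. Its single call was PRR73 (GRMZM2G095727), a pseudo-response regulator of the circadian clock, with 8.38, 8.88 and 11.1 CPM in larva libraries, against 17.01, 21.8 and 27.0 CPM in control libraries. It fell by 1.22 ± 0.22 on the log2 scale (SE; adjusted p = 0.00506), lost without larva replicate 2, without control replicate 3 and with larva replicates 2 and 3 summed (0.0509 to 0.174 by DESeq2), and called with all 12 libraries. The 4 tested clock genes of the clock list were also all lower, with a median of -0.35 that stayed between -0.48 and -0.33 in the alternatives. Gigantea 1B (GRMZM5G844173), which links the clock to flowering, had 10.7, 18.4 and 15.9 CPM in larva libraries, against 28.7, 25.3 and 37.3 CPM in control libraries, with an adjusted p of 0.0505 that missed the threshold. Gigantea 1A (GRMZM2G107101) had 77.8, 90.1 and 90.2 CPM in larva libraries, against 129, 102 and 129 CPM in control libraries (adjusted p = 0.235). The hour at which each plant was collected is not given in the sources used here, and its part in the levels of clock genes was not tested.

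Lists of signalling and transcriptional control differed in direction. Receptor-like kinases, which perceive signals at the cell surface, had 91 lower and 36 higher of 127 tested genes (209 in the table), with a median of -0.21 that lay between -0.27 and -0.16 in the alternatives. In 20 of them all larva values lay below all control values and in 3 above, against 7.75% and 7.77% of all genes. None was called by DESeq2 or edgeR, while 21 were lower and 1 higher at an unadjusted p under 0.05 by edgeR, against 5.18% and 4.78% of all genes. Lectin-like receptor kinase 7 (GRMZM2G475948) had 30.3, 36.2 and 35.0 CPM in larva libraries, against 45.7, 77.3 and 58.1 CPM in control libraries (adjusted p = 0.0784). Most members of the list were lower, and no single gene passed the test.

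AP2/ERF factors, which act in ethylene, drought and wound responses, had 33 lower and 18 higher of 51 tested genes, with a median of -0.18 (-0.06 without control replicate 1, -0.28 without control replicate 3, -0.09 with no filter). In this list 3 genes fell and 1 rose, and 14 were lower at an unadjusted p under 0.05 by edgeR, against 5.18% of all genes. GRMZM2G020150, steady and also called with all 12 libraries, had 11.1, 9.28 and 7.85 CPM in larva libraries, against 28.3, 19.2 and 35.8 CPM in control libraries. Its fall was 1.55 on the log2 scale (adjusted p = 0.000611). The DRE-binding factor dbf1 (GRMZM2G061487), known to act in drought and abscisic acid responses, had 22.2, 21.1 and 20.7 CPM in larva libraries, against 46.9, 39.8 and 69.95 CPM in control libraries. It fell by 1.29, a call lost without larva replicate 2 or 3 (adjusted p 0.0591 and 0.0541 by DESeq2). DREB1B (GRMZM2G325513), a factor of cold and dehydration responses, fell by 2.81, and EREB171 (GRMZM2G013657) rose by 1.07. The call of DREB1B was lost without larva replicate 1, larva replicate 3 or control replicate 1 and with larva replicates 2 and 3 summed (0.0517 to 0.222), and that of EREB171 was kept only without control replicate 1 (0.0561 to 0.337 in the other fits).

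WRKY factors, regulators of defence genes, had 36 lower and 13 higher of 49 tested genes, with a median of -0.22 (-0.36 to -0.12 in the alternatives) and 1 fall. That gene, WRKY104 (GRMZM2G169149), had 0.826, 0.269 and 0.805 CPM in larva libraries, against 1.51, 29.8 and 3.89 CPM in control libraries. Its fall rested mostly on control replicate 2, without which DESeq2 gave no adjusted p, and the call was also lost without larva replicate 2 or 3 (0.129 and 0.0533). Among 40 bZIP factors 17 were higher and 23 lower, 2 fell and 0 rose, against 0.719% and 0.673% of all genes. GRMZM2G066734 had 5.31, 6.32 and 5.24 CPM in larva libraries, against 23.6, 16.8 and 20.4 CPM in control libraries, and its fall of 1.84 ± 0.20 (SE; adjusted p = 1.26e-07 by DESeq2) was steady and called with all 12 libraries. GRMZM2G144480 fell by 2.48, with 1.06, 0.672 and 1.21 CPM in larva libraries, against 7.55, 4.54 and 4.19 CPM in control libraries, lost without larva replicate 2 and without control replicate 1 (adjusted p 0.0930 and 0.0512). MYB factors, by contrast, were spread on both sides of 0, with 54 higher and 43 lower of 97 tested genes. They held 2 rises and 0 falls, against 0.673% and 0.719% of all genes. NAC factors (24 higher and 18 lower of 42, with 1 fall) and homeobox factors (29 and 29 of 58, with 0 calls by DESeq2) were likewise split. Groups did not overlap in 11.9% of the NAC factors, against 15.5% of all genes. Of the homeobox factors, 4 were higher and 3 lower at an unadjusted p under 0.05 by edgeR, against 4.78% and 5.18% of all genes.

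Among calcium-binding and phosphatase genes, single genes fell. Of 97 tested calcium genes 50 were higher and 47 lower, 3 fell and 0 rose, against 0.719% and 0.673% of all genes. The EF-hand gene was the one with the smallest p. Groups did not overlap in 12.4% of the list, against 15.5% of all genes. An unadjusted p under 0.05 by edgeR was reached by 10.3%, against 9.96% of all genes. PP2C16 (GRMZM2G082487) had 8.73, 8.47 and 9.06 CPM in larva libraries, against 15.0, 34.6 and 24.7 CPM in control libraries, and fell by 1.495. Its call was lost in 5 fits (0.0618 to 0.146), those without larva replicates 2 or 3, without control replicates 2 or 3, and with the larva pair summed. Of 14 tested protein phosphatases 2C 11 were lower, with a median of -0.16 (-0.10 without larva replicate 1, -0.07 without control replicate 1).

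Most tested genes of 3 cell wall lists were lower in larva stems, although few were called. Of 16 tested genes for cellulose synthases (18 in the table), 14 were lower, with a median of -0.47 (-0.18 without control replicate 1, -0.31 without larva replicate 2, -0.82 without larva replicate 1), and CesA7 (GRMZM2G025231), a catalytic subunit, was the only call. CesA7 had 78.5, 90.2 and 81.1 CPM in larva libraries, against 225, 119 and 178 CPM in control libraries, and fell by 1.06. Its call was lost in 5 fits (0.0541 to 0.220), kept only without larva replicate 1 and without control replicate 2. Of 33 tested structural wall proteins, extensins and proline-rich proteins among them, 27 were lower with a median of -0.28 (-0.16 without control replicate 1), and the proline-rich gene GRMZM2G174719 fell. It had 47.6, 35.6 and 35.2 CPM in larva libraries, against 82.5, 80.6 and 75.5 CPM in control libraries, a fall of 1.01 on the log2 scale that was lost without larva replicate 2 (adjusted p = 0.0634). Groups did not overlap in 6.06% of the structural wall genes, 1 higher and 1 lower, against 15.5% of all genes. An unadjusted p under 0.05 by edgeR was also reached by 6.06% of them, against 9.96% of all genes. The list, drawn from the deposited descriptions, does not hold the glycine-rich wall protein gene GRMZM2G067315, whose steady fall is given above. Of 34 tested wall remodelling genes 22 were lower and 12 higher, with a median of -0.20 that was -0.61 without larva replicate 1 and 0.03 without control replicate 1. DESeq2 and edgeR called 0 of them, and 2 were higher and 3 lower at an unadjusted p under 0.05 by edgeR, against 4.78% and 5.18% of all genes.

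Genes for lignin monomers had the lowest median of all lists, -0.59, with 10 lower and 6 higher of 16 tested genes (19 in the table), 3 falls and 0 rises. Without control replicate 1 the median was -0.13. Here 37.5% of the genes had groups that did not overlap, 3 higher and 3 lower, against 15.5% of all genes. Caffeoyl-CoA O-methyltransferase 1 (GRMZM2G127948), which adds a methyl group to a lignin precursor, had 407, 370 and 399 CPM in larva libraries, against 699, 503 and 687 CPM in control libraries. It fell by 0.69 (adjusted p = 0.0320), a call kept only without control replicate 2 (0.0590 to 0.481 in the 6 other fits). Cinnamyl alcohol dehydrogenase, the brown midrib gene BM1 (GRMZM5G844562), which makes the last step to the alcohols that form lignin, had 138, 144 and 148 CPM in larva libraries, against 346, 195 and 264 CPM in control libraries. Its fall of 0.91 (adjusted p = 0.0269) was kept only without control replicate 2 (0.0763 to 0.313 in the other fits). The third fall was in agmatine coumaroyltransferase (GRMZM2G013530), caught by its description, which makes hydroxycinnamoyl agmatines and not lignin monomers. It had 2.36, 0.538 and 0.604 CPM in larva libraries, against 2.74, 6.98 and 29.8 CPM in control libraries, and fell by 3.39, a call lost in 4 fits (0.160 to 0.497), those without larva replicates 2 or 3, without control replicate 3 and with the larva pair summed. The members above all control values were the phenylalanine ammonia-lyases GRMZM2G063917 and GRMZM2G170692, the entry step of the pathway, and the O-methyltransferase GRMZM2G077486, with log2 fold changes of 1.15, 1.39 and 0.67, and none passed the test (adjusted p 0.129, 0.103 and 0.164 by DESeq2). Markers of lignifying vascular and fibre tissue, of which 23 of 36 were tested and 2 were at 0 in all 6 libraries, summed to 1166, 796 and 798 CPM in larva libraries, against 2090, 966 and 1257 CPM in control libraries. Larva replicate 1 lay above control replicate 2 in this sum, the median of the 23 genes was -0.46, and the part of tissue make-up in the wall and lignin lists was not tested. In a bulk sample, fewer cells of a type and less RNA per cell cannot be told apart.

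Class III peroxidases, secreted enzymes that cross-link wall polymers, had 11 lower and 3 higher of 14 tested genes and a median of -0.44, which was -0.82 without larva replicate 1, -0.69 without control replicate 1 and -0.27 without control replicate 3. The list held 2 falls and 0 rises. Peroxidase 70 (GRMZM2G025441), the 1 maize gene of a feature that joins 4 identifiers, had 88.8, 110 and 106 CPM in larva libraries, against 261, 164 and 221 CPM in control libraries. It fell by 1.08 ± 0.20 on the log2 scale (SE; adjusted p = 0.00110 by DESeq2), steady in the 7 fits and not called with all 12 libraries (0.380). Peroxidase 56 (GRMZM2G321839) had 27.5, 28.4 and 21.1 CPM in larva libraries, against 48.7, 44.1 and 47.5 CPM in control libraries, and fell by 0.86, kept only without larva replicate 1 and without control replicate 2 (0.0517 to 0.163 in the other fits). Glutathione S-transferases, which detoxify reactive compounds by adding glutathione, went the other way with 20 of 30 tested genes higher and a median of 0.25 (0.16 without larva replicate 1, 0.06 without control replicate 1), and 0 were called by DESeq2 or edgeR. Of these 30, 6 were higher and 3 lower at an unadjusted p under 0.05 by edgeR, against 4.78% and 5.18% of all genes, and gst5 (GRMZM2G308687), among the lower ones, had 154, 174 and 157 CPM in larva libraries, against 221, 607 and 295 CPM in control libraries.

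Photosynthesis genes had the highest median of all lists, 0.34, with 48 higher and 15 lower of 63 tested genes (71 in the table). In 20 genes all larva values lay above all control values and in 1 below, against 7.77% and 7.75% of all genes, and 4 rose and 1 fell. Without control replicate 1 the median was 0.09, and 0.59 without control replicate 2. Photosystem II protein W (AC190623.3_FG001), a small subunit of the reaction centre, had 836, 1014 and 1055 CPM in larva libraries, against 443, 644 and 477 CPM in control libraries. It rose by 0.89 (adjusted p = 0.00664), lost without larva replicate 2, larva replicate 3 or control replicate 3 and with larva replicates 2 and 3 summed (0.115 to 0.233). An early light-induced protein (GRMZM2G425728), which binds free chlorophyll under light stress, had 24.3, 14.9 and 15.7 CPM in larva libraries, against 3.02, 6.11 and 7.34 CPM in control libraries. It rose by 1.75 ± 0.36 (SE; adjusted p = 0.00381), lost without larva replicate 3 (0.0533 by DESeq2) and with all 12 libraries (0.911). The small subunit of Rubisco (GRMZM2G098520), the enzyme that fixes carbon dioxide, had 3704, 3664 and 3503 CPM in larva libraries, against 2031, 3343 and 1960 CPM in control libraries, and did not pass the test (adjusted p = 0.399).

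The subgroups of the list, formed after the values were seen, did not all point the same way. All 13 photosystem I reaction centre subunits had a positive log2 fold change, between 0.13 and 0.76 with a median of 0.55. In 6 of them all larva values lay above all control values, against 7.77% of all genes. All 4 genes of the oxygen-evolving complex were higher (median 0.59), as were 8 of 9 other photosystem II subunits (0.44) and 9 of 10 carbon fixation enzymes (0.21). Among 18 light-harvesting chlorophyll proteins, 12 were lower and 6 higher, with a median of -0.17. Chlorophyll a-b binding protein 6A (GRMZM2G036880), the only fall in the list, had 37.4, 37.8 and 41.5 CPM in larva libraries, against 49.5, 121 and 99.5 CPM in control libraries, a fall of 1.21 that was kept only without control replicate 1 (0.0899 to 0.339 in the other fits). Without control replicate 1, 12 of the 13 photosystem I genes (median 0.37), all 4 of the oxygen-evolving complex (0.52), 5 of the 9 other photosystem II genes (0.09), 6 of the 10 carbon fixation genes (0.08) and 5 of the 18 light-harvesting genes (-0.35) were higher. The 49 tested markers of green tissue, largely the same genes, summed to 16000, 17170 and 17040 CPM in larva libraries, against 10350, 18130 and 11970 CPM in control libraries, so control replicate 2 was as high as the larva libraries and the part of green cells in the list was not tested.

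**Figure D3:**
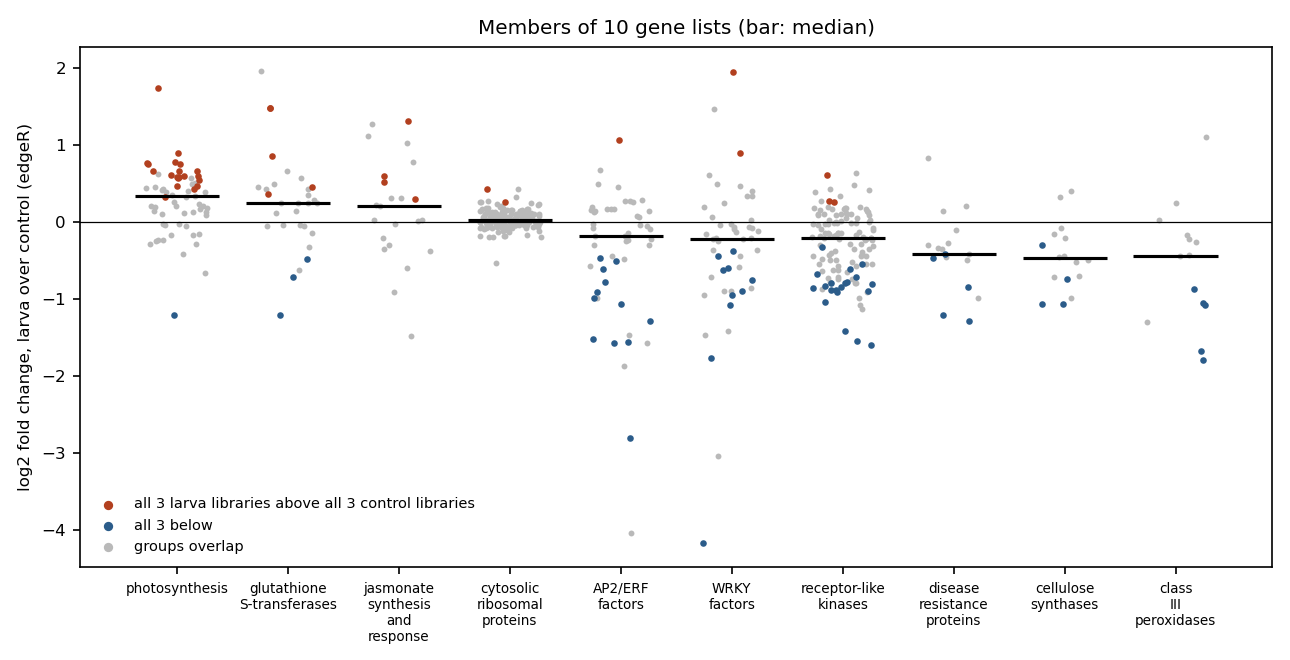
Log2 fold change (larva over control, edgeR) of each tested gene in 10 gene lists, where bars mark the list median and coloured points the genes whose larva and control values do not overlap. The medians run from 0.34 for photosynthesis to -0.47 for cellulose synthases, and ribosomal proteins lie close to 0.

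Among genes of primary metabolism single members rose. ADP-glucose pyrophosphorylase AGP2 (GRMZM2G027955), which makes the sugar donor of starch, had 365, 472 and 432 CPM in larva libraries, against 280, 254 and 191 CPM in control libraries. It rose by 0.81 (adjusted p = 0.0195), a call kept only without larva replicate 1 and without control replicate 1 (0.0530 to 0.393 in the other fits), and 16 of 26 tested starch genes were higher. Asparagine synthetase asn2 (GRMZM2G093175), which packs nitrogen for transport, had 6.73, 19.9 and 18.3 CPM in larva libraries, against 2.61, 3.66 and 2.10 CPM in control libraries. It rose by 2.42 ± 0.46 on the log2 scale (SE; adjusted p = 0.000647) and was lost without larva replicate 2 or 3 (0.0736 and 0.0555 by DESeq2). NAR2.2 (GRMZM2G163494), a partner of nitrate uptake transporters, had 273, 441 and 455 CPM in larva libraries, against 616, 1037 and 640 CPM in control libraries, and did not pass the test (adjusted p = 0.0887). Of 112 tested peptidases, 61 were higher and 51 lower, 16 had larva values above and 3 below all control values, against 7.77% and 7.75% of all genes, and 1 rose, a subtilisin-like protease (GRMZM2G121293) with a log2 fold change of 0.89 that was kept only without control replicate 1 (0.103 to 0.356 in the other fits). Peptidases cut proteins in turnover and in signalling, and the median of this list, 0.02, was negative when libraries were scaled by total counts.

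In the low-oxygen response list control replicate 1 stood apart. Of 30 tested genes 11 were higher and 19 lower, and their summed level was 7944, 9217 and 8802 CPM in larva libraries, against 15340, 8675 and 7525 CPM in control libraries. Alcohol dehydrogenase 1 (GRMZM2G442658), which keeps sugar breakdown going without oxygen, had 416, 1335 and 1242 CPM in larva libraries, against 4146, 468 and 879 CPM in control libraries. The log2 fold change, -0.88 (adjusted p = 0.999 by DESeq2), was 0.57 without control replicate 1. Early nodulin 93 (GRMZM2G131421), of the low-oxygen list and chosen after its values were seen, had 0.708, 5.78 and 5.84 CPM in larva libraries, against 275, 2.97 and 3.30 CPM in control libraries, and DESeq2 gave it no adjusted p. Hemoglobin 1 (GRMZM2G067402) had 761, 550 and 535 CPM in larva libraries, against 1556, 682 and 651 CPM in control libraries (adjusted p = 0.709). Hemoglobin 2 (GRMZM2G168898), a nonsymbiotic hemoglobin that binds nitric oxide and oxygen, behaved differently, with 22.0, 38.6 and 36.6 CPM in larva libraries, against 85.5, 77.3 and 91.8 CPM in control libraries. It fell by 1.39 ± 0.23 on the log2 scale (SE; adjusted p = 0.000115 by DESeq2), steady in the 7 fits and not called with all 12 libraries (0.749). Control replicate 1 did not set Hemoglobin 2 apart, as the other controls were as high.

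**Figure D4:**
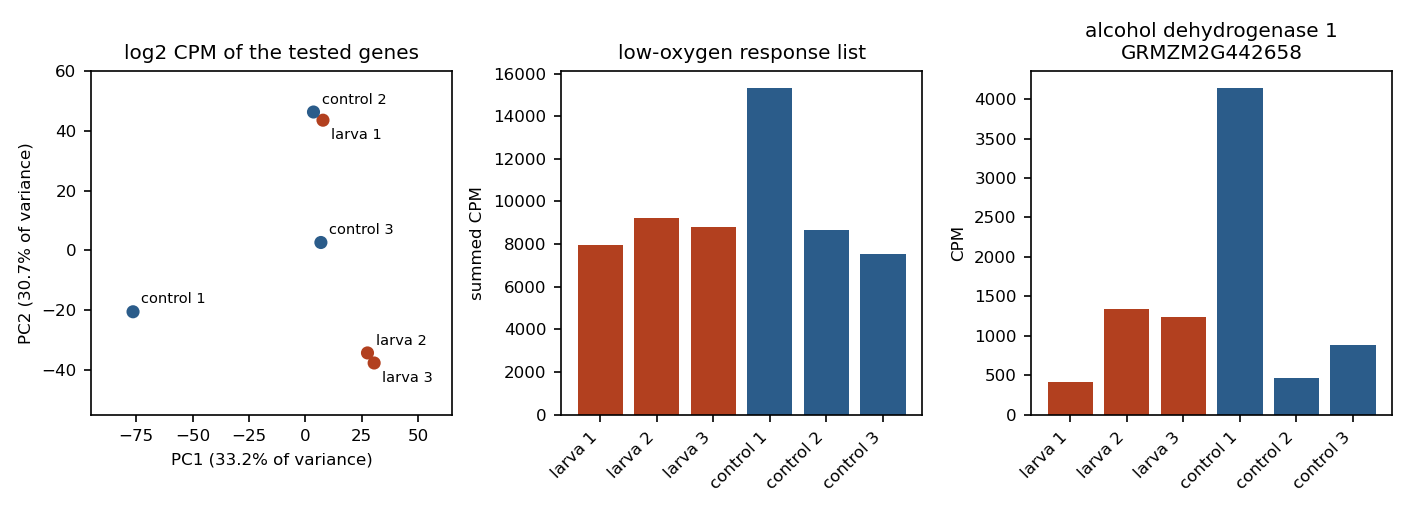
Principal components of log2 CPM of the tested genes, summed level of the low-oxygen list and level of alcohol dehydrogenase 1, with 1 point or bar per library. Control replicate 1 lies apart at -76.4 on the first component and has 15340 CPM in the low-oxygen list and 4146 CPM of alcohol dehydrogenase 1, above every other library.

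Genes of growth and upkeep had medians close to 0. Of 159 tested cytosolic ribosomal proteins 101 were higher and 58 lower, with a median of 0.03 that lay between -0.20 and 0.24 in the alternatives, and 0 were called by DESeq2 or edgeR. Their summed level was 53220, 35600 and 35540 CPM in larva libraries, against 35430, 49200 and 34610 CPM in control libraries. Larva replicate 1 and control replicate 2 thus stood above the other libraries, whichever group these belong to. On the second principal component (30.7% of the variance) they also lay together, at 43.6 and 46.4. Groups did not overlap in 1.26% of the ribosomal genes, against 15.5% of all genes. RPL19 (GRMZM5G887054), with 438, 363 and 390 CPM in larva libraries, against 293, 315 and 279 CPM in control libraries, was the 1 ribosomal gene with an unadjusted p under 0.05 by edgeR (0.629%, against 9.96% of all genes). Histones and cell cycle genes had a median of 0.10 over 72 tested genes, and -0.17 without larva replicate 1, and 54 tested markers of dividing tissue summed to 12590, 6740 and 6358 CPM in larva libraries, against 7152, 9654 and 5596 CPM in control libraries. Of 77 heat shock proteins and chaperones 43 were lower and 34 higher, with 1 rise and 1 fall, against 0.673% and 0.719% of all genes. Proteasome and ubiquitin genes (186 tested) had a median of -0.04 and 0 calls by DESeq2. At an unadjusted p under 0.05 by edgeR 5 were higher and 5 lower (5.38%, against 9.96% of all genes).

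Marker genes of other organs overlapped between the groups. Pollen and tassel markers, of which 19 of 40 were tested and 4 were at 0 in all 6 libraries, summed to 971, 701 and 677 CPM in larva libraries, against 863, 799 and 811 CPM in control libraries. Seed markers, with 2 of 11 tested, summed to 9.80, 15.5 and 14.7 CPM in larva libraries, against 5.63, 19.7 and 11.5 CPM in control libraries. Across the 55 lists, 32 held a gene called by DESeq2 and 23 held none. Of the 44 lists with at least 10 tested genes, 24 kept the sign of their median in all 17 edgeR alternatives, 9 of them higher and 15 lower in larva stems. Of the 273 called genes, 56 were in at least 1 list and 105 had a described function. Among all 19612 tested genes, 2211 were in at least 1 list and 6502 had a described function. Most tested genes, and most of those that rose or fell, are thus in none of the lists.

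**Figure D5:**
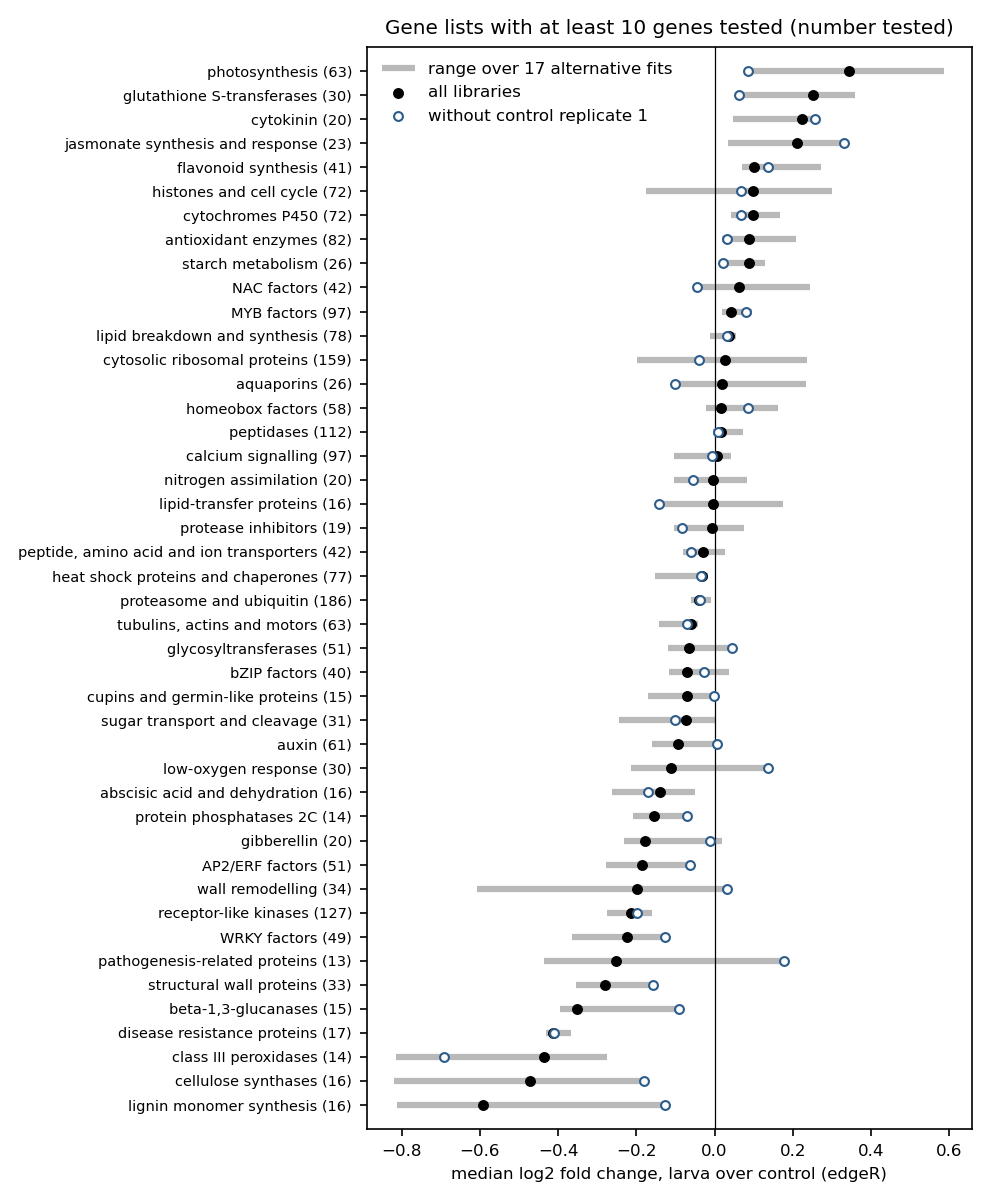
Median log2 fold change (larva over control, edgeR) of gene lists, with the range over the edgeR alternatives as lines and the median without control replicate 1 marked apart. Photosynthesis is highest at 0.34 and lignin monomer synthesis lowest at -0.59, and both come closer to 0 without control replicate 1, at 0.09 and -0.13.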

How the data were processed

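MACE libraries from stems of larva and control plants were used, 3 each, of 12 in the study. As the authors describe it, duplicate reads were removed, reads were trimmed, aligned with Novoalign 3.00.05 to the maize genome and then its transcriptome, and leftover reads were assembled. The authors deposited raw counts of reads per feature, without normalization. Their deposited p-values, FDRs, log2 fold changes and normalized group means were not used. Columns were mapped to samples by name, and 0 columns per sample were left unmapped. Reads without a match took 0.248% to 0.289% of a library and were left out.

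Features with a maize gene identifier were tested with edgeR 4.0.16 (limma 3.58.1, R 4.3.3): filterByExpr (minimum count 10, minimum total 15), TMM, the quasi-likelihood F test and Benjamini-Hochberg adjustment, with a threshold of 0.05. DESeq2 1.42.0 was run on the same genes with default settings. CPM and fold changes come from edgeR, with its default prior count for log2 fold changes. The SE given with a log2 fold change is its absolute value divided by the square root of edgeR's F. It is not the SE behind the adjusted p of DESeq2. A prior count of 2 was used only for the log2 CPM behind the principal components and the correlations. A gene's groups do not overlap when all 3 larva values lie above, or all below, the control values. The edgeR and DESeq2 tests, but not the other steps, were first run on simulated counts in which 200 genes had a known change. Library depths are in the first paragraphs of the results. Precision is set by 3 libraries per group, of which larva replicates 2 and 3 were nearly alike. The SEs given with fold changes count this pair as separate samples, and may therefore be too small.

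The 55 lists and 5 marker lists were drawn by words of the deposited descriptions, and 7 lists were corrected, after reading the matched descriptions, for words matched by chance. Members, lists and tests were chosen with earlier results of these data known. RefSeq names (assembly Zm-B73-REFERENCE-NAM-5.0, another build) were matched for 13980 tested genes, for names only. Named genes are drawn from these: the 10 higher and 10 lower genes with the smallest edgeR p, in each list up to 3 genes per direction with the smallest p under 0.05 and groups that do not overlap, the 5 highest in level of the low-oxygen and marker lists, and the 10 highest in level of all. Of the genes so drawn, those described were picked by function after their values were seen, and a few others outside these rules are named in the text as chosen after their values were seen. Alternatives were RLE size factors, total counts, no filter, a mean of 10 counts, robust and legacy quasi-likelihood fits, leaving out each library, the replicate block, larva replicates 2 and 3 summed, all 12 libraries, features with 1 identifier and every feature.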

Additional observations from a re-analysis of the deposited data

How the results depend on the processing

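The count of genes called by edgeR (0 of 19612) was 2 when libraries were scaled by total counts, 2 with no filter, 2 with features of 1 identifier and 2 with every feature in the fit, between 0 and 11 when 1 library was left out (11 without control replicate 1, 9 without larva replicate 1), and 273 by DESeq2. DESeq2's count of 273 was 178 with the replicate block, 88 with larva replicates 2 and 3 summed, 84 with all 12 libraries, and 69 to 494 when 1 library was left out. Genes whose groups do not overlap numbered 3043, and 3945 to 6832 when 1 library was left out, where fewer samples must separate. The replicate numbers did not pair the samples (correlations of same-numbered deviations -0.04, -0.21 and 0.22), and edgeR with the block called 0 genes. Alcohol dehydrogenase 1 (GRMZM2G442658) had the other sign without control replicate 1: with 1 library left out its log2 fold change ran from -1.33 to 0.57 by edgeR and from -1.32 to 0.57 by DESeq2, and that of early nodulin 93 (GRMZM2G131421) from -5.11 to 0.34 and from -5.07 to 0.38, positive only without control replicate 1. The cause of these shifts was not tested. Over the lists and all genes, 977 medians from the alternatives and DESeq2 lay within the spread of the main value and 31 beyond it. This spread was the SD within groups of each library's median log2 level. For many lists it exceeded the median itself, so a value could change sign and still count as within it. For pathogenesis-related genes the median was -0.25 and the spread 0.96. Fold changes of genes under a few CPM rest on few counts, and with 3 libraries per group moderate differences can be missed.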
